A study of Mus musculus with 4 samples.

Results

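The genes described are Toll-like receptors and the proteins that work with them: Tlr1, Tlr2, Tlr4, Tlr6 and Tlr7, the accessory proteins Cd14, Ly96, Ly86 and Cd180, and the adaptor Myd88. They were taken by symbol from the annotation of the array, which assigns 13 probe sets to the 10 genes, out of 12393 genes and 22690 probe sets in all. All 10 genes read above the floor, defined below, on at least 1 array.

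Expression was measured on 4 arrays, 1 for each of 4 populations sorted from the bone marrow of untreated C57BL/6 mice aged 8 weeks, backcrossed for at least 10 generations and housed free of specific pathogens. Each animal carried GFP knocked into the Gfi1 locus, so GFP stands for the activity of that locus. Gfi1 is a zinc finger protein that represses transcription. The first population was CD11b+, Gr1-low cells of a GFP:Gfi1 KI/KI mouse, which has no Gfi1 (Gfi1 knock-out monocytes), and its label names no GFP gate. The second was CD11b+, Gr1-low, GFP-high cells of a heterozygous GFP:Gfi1 KI/WT mouse, labelled monocytes. The third was CD11b+, Gr1-high granulocytes and the fourth CD11b+, Gr1-low, GFP-low cells (GFP-low monocytes), both also GFP:Gfi1 KI/WT. No wild-type mouse is among them, and how many animals gave each RNA is not stated. The question was how Gfi1 acts on the choice between monocytes and granulocytes.

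With 1 array a population there is no replicate, no SD between animals and no test, and every difference below describes these arrays. Values were taken as log2 from their range, differences are the first population named minus the second, and a difference of 1 (2-fold) or more is counted. A value of 5.18, the 40th percentile of all values, served as a floor: a gene at or under it on 1 array has a bound ("at least") and no difference is given when both arrays lie there. The scatter between probe sets of the same gene, the only error these data allow, had an SD of 0.16 to 0.38 over the 6 comparisons (2584 genes). In sorted populations, fewer cells of a type and less RNA per cell cannot be told apart.

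The labels were set beside marker genes. Of the 9 monocyte markers measured, 9 lay 2-fold or more below GFP-low monocytes in GFP-high cells (median difference -4.68), and 6 of 6 primary granule markers, genes of early granulocytic cells, lay 2-fold or more above (median 4.98). The markers go against the label monocyte for that array, and it is called GFP-high cells here. Gfi1 itself read 5.18 in Gfi1 knock-out monocytes, 10.31 in GFP-high cells, 7.31 in granulocytes and 3.74 in GFP-low monocytes, and whether its probes lie in the part replaced by GFP is not given. In GFP-high cells 5 of 8 macrophage markers and 4 of 5 eosinophil markers measured were also 2-fold or more above GFP-low monocytes, beside 9.03% of all genes. Of the macrophage markers 1, Adgre1, was 2-fold or more below (7.55 against 9.98). The Gfi1 knock-out array differs from the other arrays in Xist (5.80, against 10.93 in GFP-high cells, 9.56 in granulocytes and 10.42 in GFP-low monocytes) and in the Y-linked Eif2s3y (8.31, with the other arrays under the floor), and Tlr7 and Tlr8 are X-linked.

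Toll-like receptors recognise conserved microbial molecules. Tlr2 pairs with Tlr1 or Tlr6 at the cell surface to bind bacterial lipopeptides, while Tlr4 binds lipopolysaccharide through Ly96 (MD-2), to which Cd14 hands the lipid. Tlr7 sits in endosomes and senses single-stranded RNA, Cd180 (RP105) with Ly86 (MD-1) forms a Toll-like complex without a signalling domain of the Toll type, and Myd88 carries the signal of nearly all these receptors to Irak kinases. Monocytes and neutrophils are among the cells that use them most.

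The upstream sequences of 4 members are shown because they stand for the patterns found among the arrays. Tlr1 and Cd180 were low in both GFP-high cells and granulocytes. They share the order of the 4 arrays, as does Cd14, which in granulocytes was near GFP-low monocytes (10.05 against 10.13). Tlr2 and Tlr6 were low in GFP-high cells and high in granulocytes. Tlr1 and Tlr6 are also neighbours, with 0 annotated genes between them on chromosome 5. Each sequence holds the 250 bases before an annotated start site, 5′ to 3′ along the gene, from RefSeq on GRCm38.p6, and capitals mark matches to any of 3 short motifs searched on both strands.
Tlr1 (chr5:64933559-64933808, minus strand): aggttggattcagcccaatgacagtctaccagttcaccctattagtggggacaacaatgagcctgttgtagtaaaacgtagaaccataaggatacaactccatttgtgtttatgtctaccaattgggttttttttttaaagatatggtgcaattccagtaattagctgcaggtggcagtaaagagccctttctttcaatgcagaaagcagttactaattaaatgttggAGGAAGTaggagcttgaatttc
Cd180 (chr13:102693297-102693546, plus strand): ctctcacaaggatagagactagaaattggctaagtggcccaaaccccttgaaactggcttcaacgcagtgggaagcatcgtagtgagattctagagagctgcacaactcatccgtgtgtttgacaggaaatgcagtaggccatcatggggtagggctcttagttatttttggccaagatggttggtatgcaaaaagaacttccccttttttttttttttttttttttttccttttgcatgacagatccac
Tlr2 (chr3:83841609-83841858, minus strand): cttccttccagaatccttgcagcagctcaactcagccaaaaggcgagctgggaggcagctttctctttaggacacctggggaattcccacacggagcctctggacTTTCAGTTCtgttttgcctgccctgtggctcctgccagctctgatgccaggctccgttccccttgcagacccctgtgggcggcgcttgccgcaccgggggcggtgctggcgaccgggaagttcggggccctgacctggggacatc
Tlr6 (chr5:64959167-64959416, minus strand): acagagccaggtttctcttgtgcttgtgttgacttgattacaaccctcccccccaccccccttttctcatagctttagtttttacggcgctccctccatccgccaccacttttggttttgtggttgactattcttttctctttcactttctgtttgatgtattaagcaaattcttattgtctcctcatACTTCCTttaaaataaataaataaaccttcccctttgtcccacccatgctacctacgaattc

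The motifs were AGGAAGT, a core bound by the myeloid factor PU.1, then GAANNGAAA, a core of elements for interferon regulatory factors, and AATCAC, a core bound by Gfi1. None overlaps another in these windows. The first is present in 7.69%, the second in 6.31% and the third in 9.14% of 32851 windows of this length. RefSeq gives 2 windows each for Tlr1 and Tlr6, and the window with a match is the one shown. The PU.1 core begins 22 bases upstream of that Tlr1 start and, on the opposite strand, 62 bases upstream of that Tlr6 start, the other window of each gene holding 0 matches to the motifs. In Tlr2 the interferon regulatory factor core begins 145 bases upstream of the start on the opposite strand. Neither of the 2 Cd180 windows holds a match. RefSeq windows were at hand for 6 of the 10 members (9 windows), and in the 9 windows the Gfi1 core has 0 matches. Such matches are letters in a window and were not tested for binding.

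In the group as a whole, GFP-high cells had the lowest value for 9 of 10 members, the exception being Tlr4. Over all 8621 genes above the floor on an array, 20.6% had their lowest value there. That share has values under the floor set to it and ties left uncounted, a rule that leaves the members at 9 of 10. By how far they fell below the other arrays, the members divided into 5 that lay 2-fold or more below each of the other 3 arrays in GFP-high cells (Tlr2, Tlr6, Ly96, Cd14 and Tlr7), 3 that were low by this measure in both GFP-high cells and granulocytes against both Gfi1 knock-out and GFP-low monocytes (Tlr1, Cd180 and Ly86), and 2 that met neither rule (Tlr4 and Myd88). Of all 8621 genes, 2.63% met the first rule and 4.19% the second. The members were chosen with results of these data known, so their counts are set beside those shares without a test. Monocyte markers moved with the second group: the log2 of their summed level was 15.50 in Gfi1 knock-out monocytes, 11.00 in GFP-high cells, 12.00 in granulocytes and 15.60 in GFP-low monocytes, with 9 of 9 above the floor on each array. Their part in the members' values was not tested. With the floor at the 60th percentile, 2 members rather than 5 met the first rule. Tlr7 met it by its brightest probe set only, at -1.10 for GFP-high cells minus granulocytes. Its other 2 probe sets gave -0.90 and -0.59 there without a floor, and the mean of its probe sets gave -0.86.

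**Figure D1:**
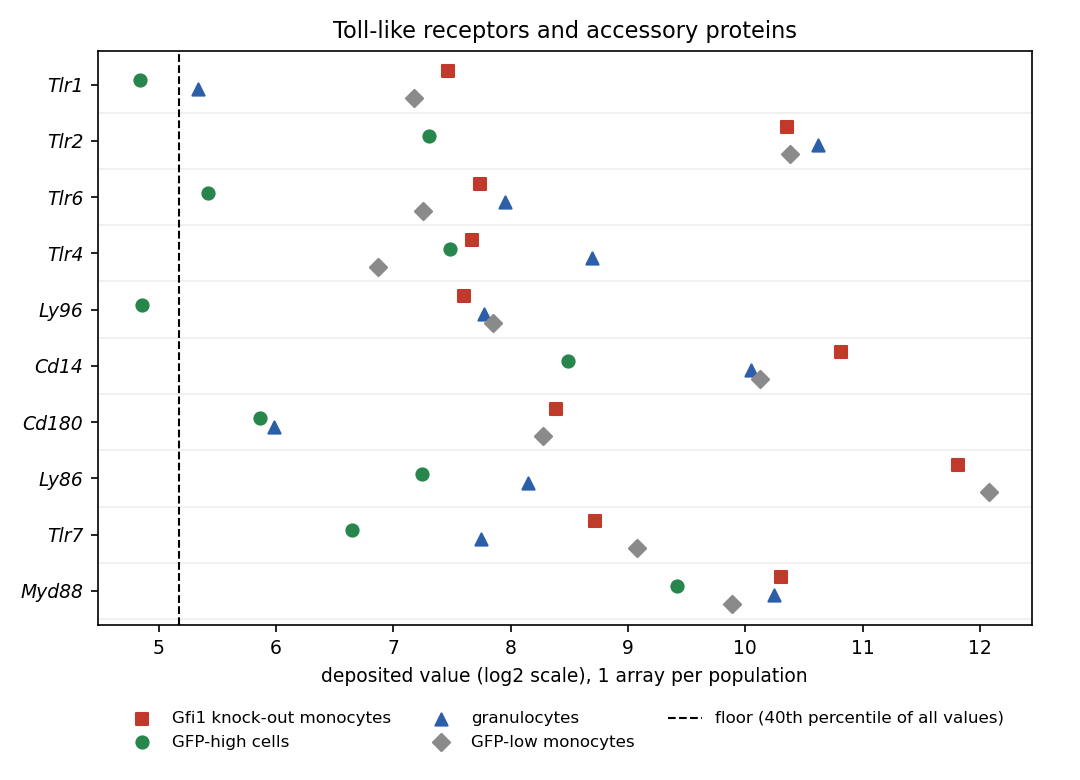
Deposited log2 value (horizontal axis) of the 10 genes on the 4 arrays, 1 point per array, with the floor as a dashed line. Points of GFP-high cells lie leftmost for 9 of 10 genes, with Tlr1 and Ly96 under the floor. The granulocyte points of Tlr1 and Cd180 lie close to them, and that of Ly86 lies further off (8.14 against 7.25).

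**Figure D2:**
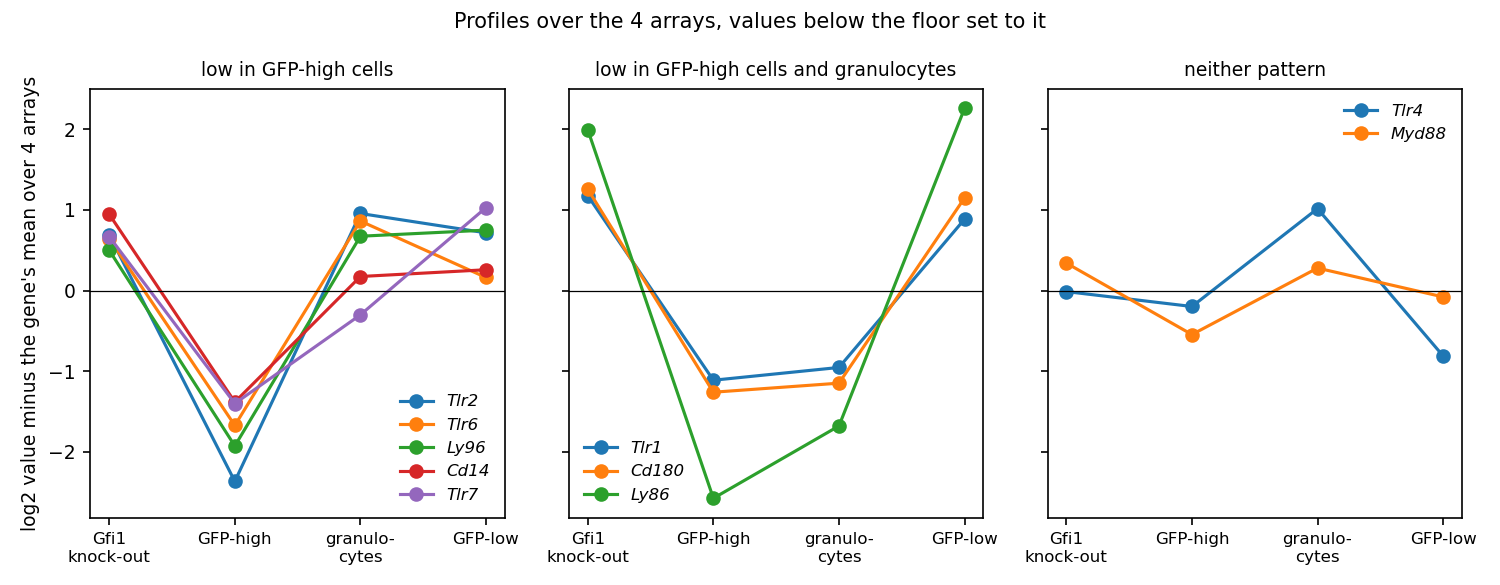
The same genes as log2 value minus the gene's mean over the 4 arrays (vertical axis), with values under the floor set to it, in 3 panels by the rules given above. Lines join the arrays of a gene and imply no order among them.

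Among the receptors for bacterial lipopeptides, Tlr2, the subunit common to both heterodimers, read 10.36 in Gfi1 knock-out monocytes, 7.30 in GFP-high cells, 10.62 in granulocytes and 10.38 in GFP-low monocytes. It was low in GFP-high cells alone, and the other 3 arrays lay within 0.27 of each other. Its difference was -3.32 (9.99-fold lower) for GFP-high cells minus granulocytes and -3.08 (8.46-fold lower) for GFP-high cells minus GFP-low monocytes.

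Tlr6, the partner for diacylated lipopeptides, read 7.74 in Gfi1 knock-out monocytes, 5.42 in GFP-high cells, 7.95 in granulocytes and 7.26 in GFP-low monocytes. It had the outline of Tlr2, with a difference of -1.83 (3.57-fold lower) for GFP-high cells minus GFP-low monocytes. Tlr1, the partner for triacylated lipopeptides, read 7.46 in Gfi1 knock-out monocytes, 4.84 in GFP-high cells, 5.34 in granulocytes and 7.17 in GFP-low monocytes. It stood near or under the floor in both GFP-high cells and granulocytes, and was at least 3.99-fold lower in GFP-high cells than in GFP-low monocytes. The partners of Tlr2 therefore parted in granulocytes: for granulocytes minus GFP-low monocytes the difference was -1.84 for Tlr1 (3.57-fold lower) and 0.70 for Tlr6, under 2-fold. With the floor at the 60th percentile Tlr1 was under 2-fold there too (-0.37), and in GFP-high cells minus GFP-low monocytes both Tlr1 (-0.37) and Tlr6 (-0.45) were. The SD between probe sets was 0.34 in granulocytes minus GFP-low monocytes and 0.27 in GFP-high cells minus GFP-low monocytes. It comes from genes above the floor on all 4 arrays, which Tlr1 is not, and each of these genes has a single probe set.

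The lipopolysaccharide receptor did not move as a unit. Ly96, which binds the lipid within the complex, read 7.60 in Gfi1 knock-out monocytes, 4.86 in GFP-high cells, 7.78 in granulocytes and 7.85 in GFP-low monocytes. It was under the floor in GFP-high cells and within 0.25 of itself on the other arrays, at least 6.39-fold lower in GFP-high cells than in GFP-low monocytes. Cd14, the lipid-transfer co-receptor, read 10.82 in Gfi1 knock-out monocytes, 8.49 in GFP-high cells, 10.05 in granulocytes and 10.13 in GFP-low monocytes. It was 3.12-fold lower in GFP-high cells than in GFP-low monocytes and was well above the floor throughout.

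Tlr4, the signalling receptor, ran differently. Its brighter probe set read 7.67 in Gfi1 knock-out monocytes, 7.48 in GFP-high cells, 8.70 in granulocytes and 6.87 in GFP-low monocytes. The dimmer one read 7.09 in Gfi1 knock-out monocytes, 6.82 in GFP-high cells, 7.46 in granulocytes and 6.15 in GFP-low monocytes. Both put granulocytes highest and GFP-low monocytes lowest, the reverse end from Ly96. For granulocytes minus GFP-low monocytes the difference was 1.83 (3.54-fold higher) by the brighter and 1.31 by the dimmer probe set, and for GFP-high cells minus GFP-low monocytes it was 0.61 and 0.67. Only the brighter probe set put Gfi1 knock-out monocytes (-1.03) and GFP-high cells (-1.21) at least 2-fold below granulocytes. The dimmer gave -0.37 and -0.64 for the same comparisons.

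**Figure D3:**
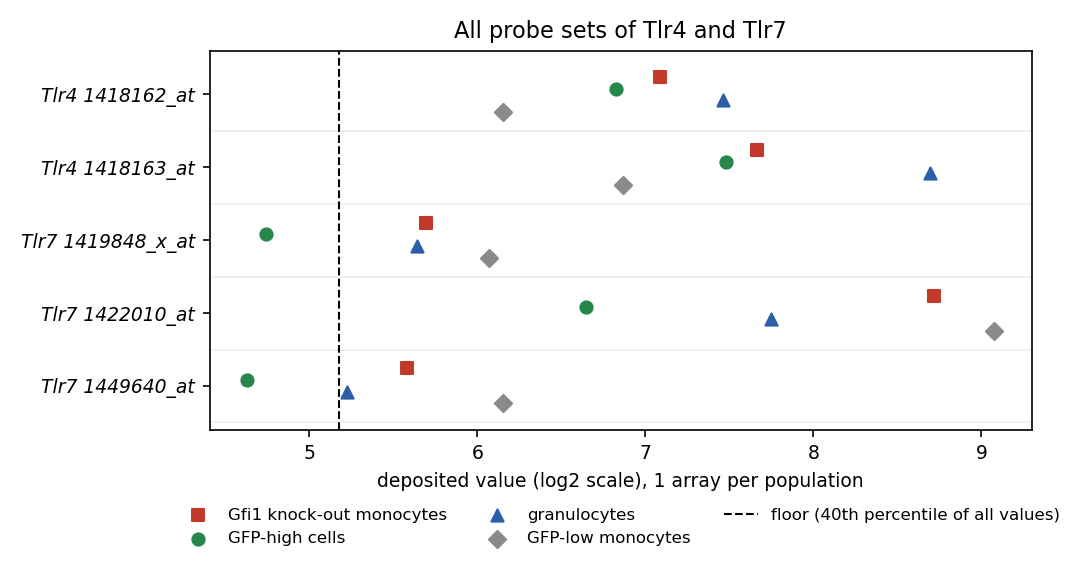
Deposited log2 value (horizontal axis) of the 2 probe sets of Tlr4 and the 3 of Tlr7 on the 4 arrays, 1 point per array, with the floor as a dashed line. Both Tlr4 probe sets place granulocytes highest and GFP-low monocytes lowest, and all Tlr7 probe sets place GFP-high cells lowest and GFP-low monocytes highest.

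In the Cd180 complex, Ly86, the secreted partner that holds Cd180 at the surface, read 11.81 in Gfi1 knock-out monocytes, 7.25 in GFP-high cells, 8.14 in granulocytes and 12.08 in GFP-low monocytes. The Gfi1 knock-out and GFP-low monocytes formed the high pair, and no other member had so wide a range (4.83). Its difference of -4.83 (28.5-fold lower) for GFP-high cells minus GFP-low monocytes was number 16 from the bottom of 8232 genes, and that of -3.94 (15.3-fold lower) for granulocytes minus GFP-low monocytes was number 32 of 8503. Cd180 read 8.38 in Gfi1 knock-out monocytes, 5.87 in GFP-high cells, 5.98 in granulocytes and 8.28 in GFP-low monocytes. It fell into the same high and low pairs, 5.31-fold lower in GFP-high cells and 4.91-fold lower in granulocytes than in GFP-low monocytes. Both genes are also expressed by B cells. Of 9 B cell markers on the array, 4 were above the floor in Gfi1 knock-out monocytes, 4 in GFP-high cells, 6 in granulocytes and 4 in GFP-low monocytes. The log2 of their summed level was 8.36 in Gfi1 knock-out monocytes, 8.65 in GFP-high cells, 9.63 in granulocytes and 8.98 in GFP-low monocytes, and the defining genes Pax5 and Ebf1 were under the floor throughout. The part of B cells in the Cd180 and Ly86 values was not tested.

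Tlr7, the RNA sensor, read 8.72 in Gfi1 knock-out monocytes, 6.65 in GFP-high cells, 7.75 in granulocytes and 9.08 in GFP-low monocytes by its brightest probe set. Granulocytes stood between the low GFP-high array and the high pair. The difference was -2.43 (5.38-fold lower) in GFP-high cells and -1.33 in granulocytes, each minus GFP-low monocytes. With the mean of its probe sets these were -1.76 and -0.90. The other 2 probe sets lay close to the floor and gave smaller differences of the same sign when the floor was not applied, -1.33 and -1.52 in the first comparison and -0.43 and -0.93 in the second. Markers of dendritic cells, which also express Tlr7, were lower as well in both of these comparisons. In GFP-high cells 4 of 5 measured lay 2-fold or more below GFP-low monocytes, beside 9.61% of all genes. In granulocytes 4 of 5 did too (median -1.72), beside 18.2% of all genes. The log2 of the list's summed level was 10.56 in Gfi1 knock-out monocytes, 9.11 in GFP-high cells, 10.54 in granulocytes and 12.08 in GFP-low monocytes. Ccr9, Zbtb46 and Xcr1 of that list were under the floor throughout. In Gfi1 knock-out minus GFP-low monocytes 3 of 5 were 2-fold or more lower (median -1.81), where Tlr7 was at -0.36. For the interferon response list the median level was 6.28 in Gfi1 knock-out monocytes, 6.13 in GFP-high cells, 9.14 in granulocytes and 9.33 in GFP-low monocytes. The part of the dendritic cell markers and of the interferon response in the Tlr7 values was not tested.

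Myd88, the adaptor, varied least. It read 10.30 in Gfi1 knock-out monocytes, 9.42 in GFP-high cells, 10.24 in granulocytes and 9.88 in GFP-low monocytes. Its range of 0.89 was the only one under 2-fold in the group.

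The comparisons are given next with their counts. GFP-high cells and GFP-low monocytes have the same genotype and Gr1 gate. Their monocyte and primary granule markers differ as given above, and the part of these in the members' values was not tested. Of 10 members, 8 were at least 2-fold lower and 0 higher in GFP-high cells (6 when the 60th percentile was the floor). Among 8232 genes measured, 9.61% were lower and 9.03% higher by that rule. The median difference was -2.20 over the members and 0.03 over all genes. The members under 2-fold were Myd88 at -0.47 and Tlr4 at 0.61.

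Between Gfi1 knock-out monocytes and GFP-high cells the picture was nearly the mirror image, and GFP-high cells are the array common to both comparisons. In Gfi1 knock-out monocytes 8 of 10 members were at least 2-fold higher and 0 lower, beside 9.53% higher and 7.81% lower among 8195 genes. The median was 2.32 over the members and -0.02 over all genes. Ly86 was 23.7-fold, Tlr2 8.31-fold and Cd180 5.72-fold higher, Ly96 at least 5.37-fold and Tlr1 at least 4.88-fold higher. With the floor at the 60th percentile 5 members rather than 8 were at least 2-fold higher, since Tlr1, Tlr6 and Ly96 came under 2-fold. Marker lists differed too: in Gfi1 knock-out monocytes 9 of 9 monocyte markers were at least 2-fold higher. There 6 of 6 primary granule and 5 of 5 secondary granule markers were at least 2-fold lower. Genotype, GFP gate, these markers and the sex-linked transcripts Xist and Eif2s3y differ together in this comparison, and their parts cannot be told apart.

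Between Gfi1 knock-out and GFP-low monocytes, 0 of 10 members were 2-fold apart in either direction, beside 0.637% higher and 1.27% lower among 8010 genes. Marker lists did differ here: in Gfi1 knock-out monocytes 10 of 10 interferon response genes, 3 of 5 secondary granule and 3 of 5 dendritic cell markers measured were at least 2-fold lower, and 5 of 5 primary granule and 3 of 4 eosinophil markers were at least 2-fold higher. Their part in the members' values was not tested. The median was 0.20 over the members and 0.03 over all genes. The largest differences were those of Tlr4 (0.80 and, by the dimmer probe set, 0.93) and Cd14 (0.69), which was number 151 from the top, with Tlr4 number 104. Tlr6 (0.48) and Myd88 (0.42) followed, and Tlr7 was at the other end with -0.36. The SD between probe sets was 0.16 here, but it does not cover the spread between animals, so recurrence in other mice was not tested. The arrays also differ in Xist and Eif2s3y as given above. The part of this in the members' values, the X-linked Tlr7 included, was not tested.

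Between granulocytes and GFP-low monocytes the members went both ways. Of 10, 1 (Tlr4) was at least 2-fold higher and 4 (Tlr1, Cd180, Ly86 and Tlr7) lower in granulocytes, beside 10.0% higher and 18.2% lower among 8503 genes. The median was -0.08 over the members and 0.00 over all genes. Tlr2 (0.24), Ly96 (-0.08) and Cd14 (-0.08) were at nearly the same level on both arrays. Granulocytes were strong in mature neutrophil markers, 8 of 8 at least 2-fold higher than in GFP-low monocytes, and 9 of 9 monocyte markers were at least 2-fold lower. The part of these lists in the members' values was not tested.

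Between GFP-high cells and granulocytes, 6 of 10 members were at least 2-fold lower and 0 higher in GFP-high cells, beside 8.93% lower and 16.4% higher among 8457 genes. The median was -1.16 over the members and -0.03 over all genes. Besides Tlr2, Ly96 was at least 6.06-fold, Tlr6 5.79-fold, Cd14 2.94-fold and Tlr4 2.32-fold lower, with Tlr7 at -1.10. With the floor at the 60th percentile Ly96 (-0.97) and Tlr7 (-0.94) were under 2-fold, and with the mean of probe sets Tlr4 (-0.93) and Tlr7 (-0.86) were, leaving 4 members under either. Under quantile normalization Ly86 passed 2-fold, at -1.03 against -0.90 without it. Mature neutrophil markers were likewise lower in GFP-high cells for 8 of 8, whereas secondary granule markers were under 2-fold apart for 5 of 5.

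Between Gfi1 knock-out monocytes and granulocytes, 3 members (Ly86, Cd180 and Tlr1) were at least 2-fold higher and 1 (Tlr4) lower in Gfi1 knock-out monocytes, beside 20.3% higher and 11.2% lower among 8520 genes. Ly86 was 12.7-fold, Cd180 5.29-fold and Tlr1 4.37-fold higher. With 3 and 1 of 10, these counts lie near the shares for all genes. Of the markers, 9 of 9 of monocytes were at least 2-fold higher and 8 of 8 of mature neutrophils at least 2-fold lower. Genotype, Gr1 gate, these markers and the transcripts Xist and Eif2s3y also differ together here and cannot be told apart.

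**Figure D4:**
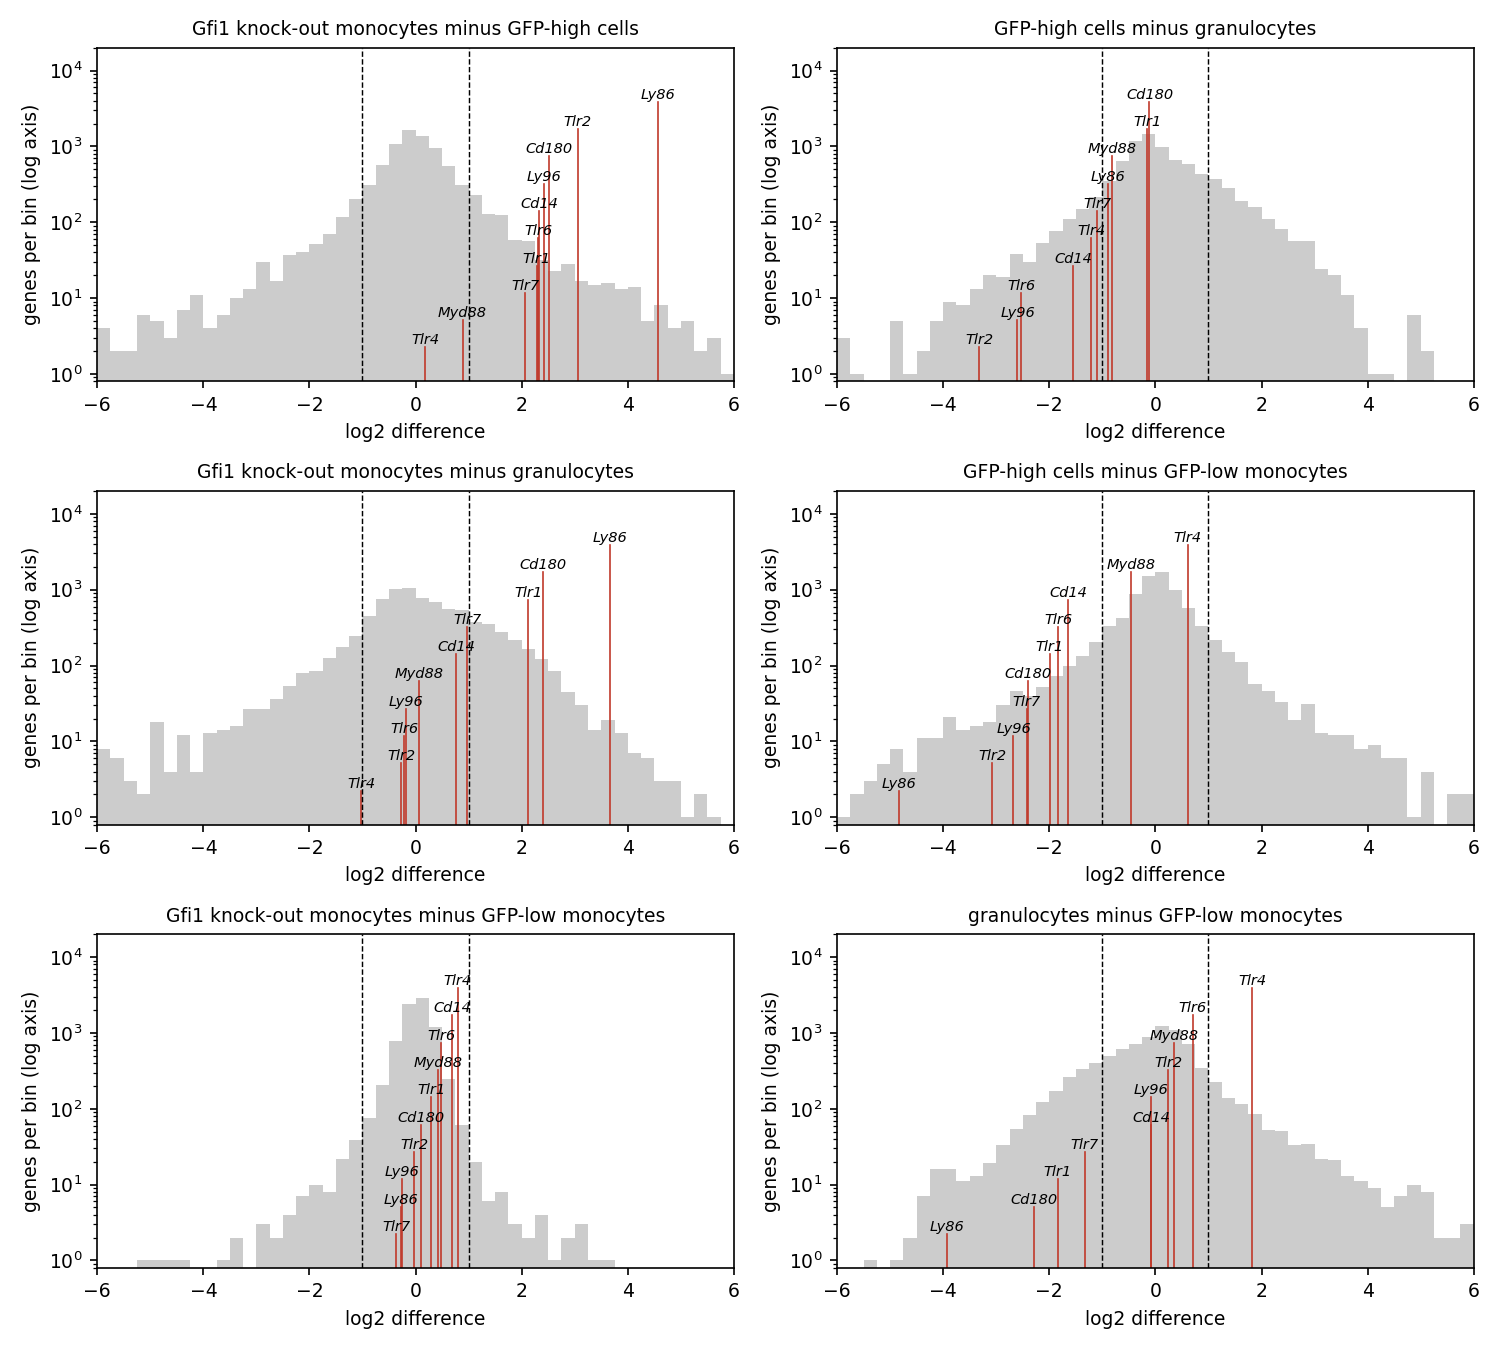
Histograms of the log2 difference (horizontal axis, differences beyond 6 placed in the end bins) over all genes measured in each of the 6 comparisons, with the number of genes per bin on a log axis. Red lines mark the 10 members and their heights carry no value, and dashed lines mark 2-fold. Where GFP-high cells are compared with Gfi1 knock-out or GFP-low monocytes, 8 of 10 members lie beyond a dashed line on the side of lower values in GFP-high cells, and in Gfi1 knock-out minus GFP-low monocytes all lie between the lines.

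Genes with the most similar profile were found by the root mean square difference between the 4 values of a gene, each centred on its own mean, among 8621 genes over 4 arrays. Myd88 varied too little for this. For Ly96 the nearest was a Toll-like receptor not among the members, Tlr8 (0.10), a sensor of RNA in endosomes, followed by Abhd15 and Myadm. For Ly86 they were Ahnak (0.12), the monocyte transcription factor gene Klf4 (0.16) and Ms4a6b (0.16). For Cd180 they were Cav2, Sting1 and Ctsa, with Tlr1 number 25. For Tlr1 they were Qpct, Lztfl1 and Ext1, with Cd180 number 16. For Tlr2 they were Trpv2, Tpd52 and Fabp5, with Ly96 number 10, and for Tlr6 Rnf149, Myadm and S100a6. Tlr7 was nearest to Psap, Anxa6 and Slc29a3, Cd14 to Wfdc18, Mitf and Ndrg1, and Tlr4 to Cds2, Aacs and Ttll1. With 4 points to a profile, these neighbours are a description only.

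Other genes of the pathway were read from a list of 50, of which 36 had a probe set assigned to them alone and 35 were above the floor on an array. In GFP-high cells minus GFP-low monocytes, 4 of 35 were at least 2-fold higher and 7 lower (median -0.28), beside 9.03% and 9.61% of all genes. In Gfi1 knock-out monocytes minus GFP-high cells 6 of 34 were higher and 1 lower, beside 9.53% and 7.81%, and in Gfi1 knock-out minus GFP-low monocytes 0 of 35 were 2-fold apart, beside 0.637% higher and 1.27% lower. In granulocytes minus GFP-low monocytes 6 of 35 were higher and 4 lower, beside 10.0% and 18.2%. In GFP-high cells minus granulocytes 3 were higher and 5 lower, beside 16.4% and 8.93%, and in Gfi1 knock-out monocytes minus granulocytes 4 were higher and 8 lower, beside 20.3% and 11.2%. Several of these counts lie near the shares for all genes.

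Of the other receptors, Tlr8 read 8.19 in Gfi1 knock-out monocytes, 5.77 in GFP-high cells, 8.20 in granulocytes and 8.21 in GFP-low monocytes. It was thus another gene low in GFP-high cells alone (5.44-fold lower than in GFP-low monocytes). Tlr5, the flagellin receptor, read 5.08 in Gfi1 knock-out monocytes, 5.19 in GFP-high cells, 7.35 in granulocytes and 5.35 in GFP-low monocytes, high in granulocytes only. Tlr9 varied by 0.79 over the arrays, and Tlr3 was under the floor on all of them.

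Chaperones of the receptors and proteins that carry them or serve in the endosomal compartment made up a list of 7. In GFP-high cells 4 of 7 were 2-fold or more below GFP-low monocytes and 0 above. Among all genes 9.61% were lower and 9.03% higher. The peptide and histidine transporter Slc15a3 read 9.40 in Gfi1 knock-out monocytes, 5.79 in GFP-high cells, 10.64 in granulocytes and 9.20 in GFP-low monocytes, and was 10.7-fold lower in GFP-high cells than in GFP-low monocytes. Slc15a4, its relative, and the lysosomal protease Lgmn were 2.93-fold and 4.42-fold lower, and both were low in granulocytes too. Unc93b1, which takes Tlr7 and other receptors to endosomes, was 2.67-fold lower; it is named here after its values were seen. The folding chaperone Hsp90b1 read 10.84 in Gfi1 knock-out monocytes, 10.63 in GFP-high cells, 8.95 in granulocytes and 10.64 in GFP-low monocytes, low in granulocytes alone.

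Among proteins at the membrane, Clec7a (Dectin-1), a receptor for fungal glucan that acts with Tlr2, read 11.99 in Gfi1 knock-out monocytes, 8.45 in GFP-high cells, 12.04 in granulocytes and 12.19 in GFP-low monocytes. Its outline was that of Tlr2, 13.4-fold lower in GFP-high cells than in GFP-low monocytes. Lbp, which brings lipopolysaccharide to Cd14, read 8.98 in Gfi1 knock-out monocytes, 11.45 in GFP-high cells, 10.36 in granulocytes and 8.11 in GFP-low monocytes, and was 10.2-fold higher in GFP-high cells than in GFP-low monocytes. The integrin chain Itgb2 was highest in granulocytes (13.09) and lowest in Gfi1 knock-out monocytes (12.02).

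Downstream of the receptors, Tirap, the adaptor that brings Myd88 to Tlr2 and Tlr4, read 7.92 in Gfi1 knock-out monocytes, 8.91 in GFP-high cells, 10.02 in granulocytes and 7.73 in GFP-low monocytes. It was highest in granulocytes and lowest in GFP-low monocytes, as Tlr4 was. The adaptor Pik3ap1 was also highest in granulocytes (7.92) and lowest in Gfi1 knock-out monocytes (6.89). Of 12 kinases, ubiquitin ligases and their partners, 0 were 2-fold apart between Gfi1 knock-out monocytes and GFP-high cells. Among all genes 9.53% were higher and 7.81% lower there. In GFP-high cells minus GFP-low monocytes Ikbke (1.14) was the 1 higher and Tab2, at the edge of the 2-fold rule, the 1 lower. These lie near the shares for all genes, 9.03% higher and 9.61% lower. Ikbke, a kinase of the interferon arm, was lowest in granulocytes (6.70, against 9.03 in GFP-high cells), and Tab3, which links Traf6 to Map3k7, was highest there (8.27). Traf6 varied by 0.35 and Map3k7 by 0.22 over the 4 arrays. Of 7 negative regulators, Dok2, an adaptor that dampens receptor signalling, was 2.44-fold higher in GFP-high cells and 3.14-fold higher in granulocytes than in GFP-low monocytes, and the others were under 2-fold apart in both comparisons. Among all genes 9.03% and 10.0% were higher in these comparisons.

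**Figure D5:**
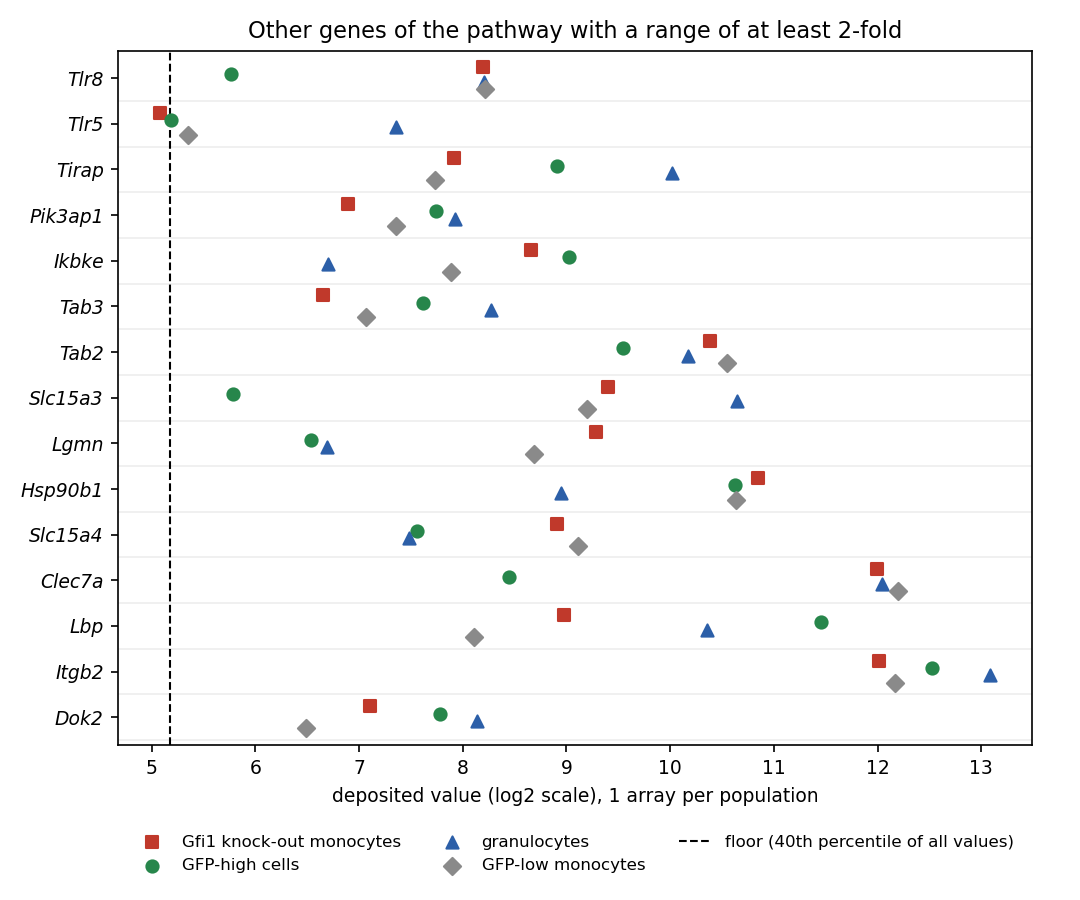
Deposited log2 value (horizontal axis) of the other pathway genes with a range of at least 2-fold over the 4 arrays, up to 4 of each list, 1 point per array, with the floor as a dashed line. Tlr8, Slc15a3 and Clec7a are low in GFP-high cells alone, while Tlr5 is high in granulocytes alone and Lbp is highest in GFP-high cells.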

How the data were processed

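Total RNA was extracted with TRIzol and labelled with biotin from 6 µg, per the labels' protocols. The authors deposited 1 log2 value per probe set and array. The log2 scale was inferred from the range (2.70 to 14.50), and how the values were summarised or normalized is not stated in the labels. Array medians ran from 5.91 to 6.01, and no further scaling was applied. Arrays have no read depth; their number, 1 per population, limits precision.

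Probe sets were named from the platform annotation, updated by gene identifier to GRCm38.p6 symbols (20380 with 1 gene, 20351 matched, 691 with several, 64 controls left out). The probe set with the highest mean stood for a gene. Values under the 40th percentile were set to it, and differences of 1 or more were counted with pandas 2.3.3. The counting was run on simulated data, with shifts beyond the 2-fold line planted in genes well above the floor. That checks the code and says nothing of genes near the floor or of the real scatter. Named genes are all members, up to 4 genes per pathway list with the widest range of at least 1, and the 3 nearest profiles of each member. Tlr3, Tlr9, Traf6, Map3k7 and Unc93b1 lie outside this rule and were named after their values were seen. The members and lists were chosen with earlier results of these data known. Alternatives were 3 other floors, 2 normalizations, 2 choices of probe set and, added after the data were seen, only genes above the floor on both arrays.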

Additional observations from a re-analysis of the deposited data

How the results depend on the processing

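The 10 members' differences were recomputed under 8 alternatives. None of the 472 recomputed values changed the sign of a difference that was at least 2-fold, 442 moved by less than the SD between probe sets, and 14 crossed the 2-fold line. Of 302 recomputed counts, 292 stayed within 1.5 times. With the floor at the 60th percentile, which lifts the low arrays, 5 members instead of 8 were at least 2-fold apart (all higher) in Gfi1 knock-out monocytes minus GFP-high cells, and 2 instead of 5 lay 2-fold or more below each other array in GFP-high cells. That floor put Tlr1 at 0.66, Tlr6 at 0.93 and Ly96 at 0.80 in Gfi1 knock-out monocytes minus GFP-high cells. With the mean of all probe sets, 0 members instead of 1 were at least 2-fold lower in Gfi1 knock-out monocytes than in granulocytes, since Tlr4 was then at -0.70, and Tlr7 in granulocytes minus GFP-low monocytes was at -0.90. Among the other pathway genes, 1 instead of 0 was lower (1 apart in all) in Gfi1 knock-out than in GFP-low monocytes with the floor at the 20th percentile or with no floor, and 3 with quantile normalization or 2 with arrays centred on their medians, instead of 1, were lower in Gfi1 knock-out monocytes than in GFP-high cells. In Gfi1 knock-out monocytes minus granulocytes the median difference of all genes, 0.01 as reported, was -0.16 with no floor and 0.16 with the floor at the 60th percentile. No paired analysis was possible because each population has 1 array. Values close to the floor limit what can be said of Tlr1 and Ly96 in GFP-high cells, where differences are bounds.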
